A study of Mus musculus with 2 samples.

Results

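The 5 miRNA genes described here lie at imprinted loci of the mouse genome outside the large Dlk1-Dio3 and Sfmbt2 clusters. They are Mir335 at Mest, Mir483 at Igf2, Mir675 at H19, and Mir296 and Mir298 beside the Gnas locus. They were chosen by symbol, from their position, among the 2202 miRNA genes that were counted. Small RNA was sequenced from the gastrocnemius, the large calf muscle, of 2 male B6CASTF1/J mice aged 10 days, an F1 cross of C57BL/6J with CAST/EiJ. The labels give 1 group with no treatment, number the samples as biological replicates 1 and 2 from separately numbered animals, and give both the same donor entry. There is therefore no comparison between conditions, and every p-value compares only 2 samples of 1 kind. The exact binomial and Fisher's exact tests used here cover counting error only, not the spread between animals.

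An imprinted gene is transcribed from the copy inherited from one parent, while the other copy is silent, under the control of DNA methylation marks set in the germ line. Mest, Igf2 and the antisense transcript Nespas of the Gnas locus are known to be expressed from the paternal copy, and H19 from the maternal copy. Igf2 encodes a growth factor of the fetus and H19 a long non-coding RNA, both abundant in growing muscle and reduced in most tissues after birth. A miRNA is cut from a hairpin, and either arm of the hairpin can be loaded into the silencing complex, where its seed (bases 2 to 8) pairs with target transcripts. The counts here are per hairpin gene, so they separate neither the arms nor the parental copies.

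The 5 hairpins are shown first because each is the unit that was counted. Their sequences are those of RefSeq for GRCm38.p6, where all 5 genes were found, and each is identical to the hairpin of the M21 annotation. They are written 5′ to 3′ with the 2 mature arms in capitals.
Mir335 hairpin: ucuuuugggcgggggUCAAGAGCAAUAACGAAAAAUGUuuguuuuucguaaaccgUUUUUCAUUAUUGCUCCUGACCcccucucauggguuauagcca
Mir483 hairpin: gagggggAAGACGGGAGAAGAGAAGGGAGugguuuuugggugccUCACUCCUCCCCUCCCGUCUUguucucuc
Mir675 hairpin: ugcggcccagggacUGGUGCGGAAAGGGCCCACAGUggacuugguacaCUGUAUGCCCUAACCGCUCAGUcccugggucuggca
Mir296 hairpin: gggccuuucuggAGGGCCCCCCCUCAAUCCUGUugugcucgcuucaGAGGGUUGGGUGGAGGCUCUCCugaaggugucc
Mir298 hairpin: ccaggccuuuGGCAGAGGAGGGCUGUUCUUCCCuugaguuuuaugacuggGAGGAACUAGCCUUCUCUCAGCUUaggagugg
The hairpins are 98, 73, 84, 79 and 82 nt long in that order. Their GC content ran from 42.9% in Mir335 to 63.3% in Mir296, with 63.1% in Mir675, 58.9% in Mir483 and 53.7% in Mir298, beside a median of 51.7% over the 1005 hairpins of the table. The lowest predicted folding energy was that of Mir675, at -56.0 kcal/mol, and the highest that of Mir483, the shortest hairpin, at -33.8 kcal/mol.

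The 10 mature arms are shown with the seed in capitals, since the seed is what groups miRNAs into families.
miR-335-5p: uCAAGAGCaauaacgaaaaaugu
miR-335-3p: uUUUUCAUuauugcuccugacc
miR-483-5p: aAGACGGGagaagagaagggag
miR-483-3p: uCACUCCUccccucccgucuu
miR-675-5p: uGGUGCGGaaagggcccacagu
miR-675-3p: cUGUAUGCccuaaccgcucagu
miR-296-5p: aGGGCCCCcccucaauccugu
miR-296-3p: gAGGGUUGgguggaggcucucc
miR-298-5p: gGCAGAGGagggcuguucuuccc
miR-298-3p: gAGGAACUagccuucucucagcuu
The 10 arms carried 10 different seeds, and none of these seeds occurred in an arm of another gene among the 1738 arms of the table. Each gene is thus the single entry for its seeds there, also Mir296 and Mir298, which are neighbours. The arms of Mir335 were rich in A and U, with a GC content of 30.4% for miR-335-5p and 36.4% for miR-335-3p. Of the 1738 arms, 35 had a GC content at or below that of miR-335-5p. The arms of Mir296 were the opposite, at 66.7% (miR-296-5p) and 68.2% (miR-296-3p). The arms of Mir483 were uneven in another way, since 95.5% of miR-483-5p is A or G and 9.52% of miR-483-3p is. No other arm of the table had an A or G share as high as that of miR-483-5p.

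**Figure D1:**
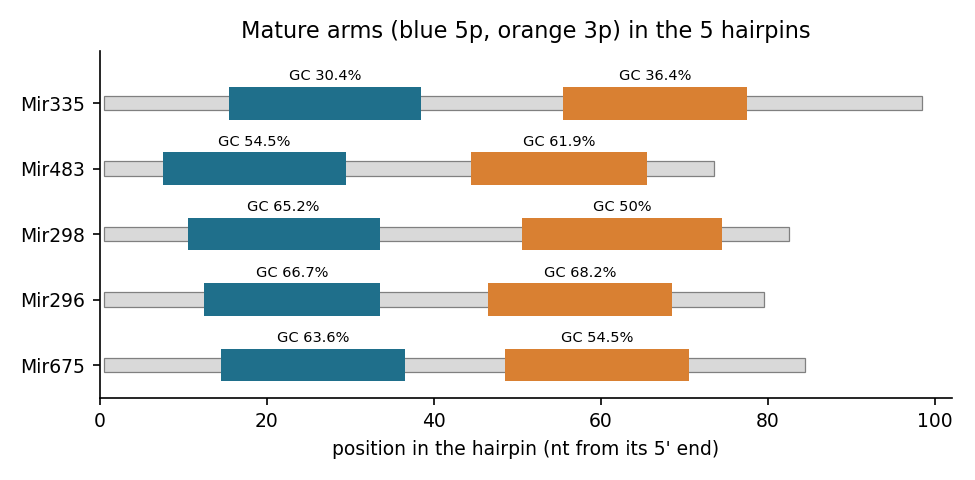
Position of the mature arms in each hairpin, in nt from its 5′ end (grey bar: hairpin, blue: 5p arm, orange: 3p arm, with the GC content of each arm above it). The arms of Mir335 have the lowest GC content, 30.4% and 36.4%, and sit in the longest hairpin, of 98 nt.

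Reads that matched several genomic places were counted for no gene and made up 47.0% to 48.0% of the reads, so the arms were searched for in other genes. No arm shared more than 12 nt with another annotated miRNA gene on either strand. Among the M21 transcripts, each whole arm was found in its own gene and, for the arms of Mir675, also in its host H19. Other places in the genome were not searched.

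The loci differ in how the hairpins lie in longer genes (mm10 coordinates, counted from 1, with the M21 annotation). Mir335 (chromosome 6, 30741299 to 30741396, plus strand) lies in an intron of all 7 Mest transcripts that span it, 17752 nt from the start of the gene. Mest encodes a protein of the alpha/beta hydrolase fold and is a marker of mesoderm. Mir483 (chromosome 7, 142654924 to 142654996, minus strand) lies in an intron of all 7 Igf2 transcripts that span it, 11820 nt from the start of Igf2, and in an intron of the protein-coding gene Gm49394 on the same strand. Mir675 (chromosome 7, 142577064 to 142577147, minus strand) lies in an exon of 3 of the 4 overlapping H19 transcripts and in an intron of the other, 996 nt from the start of H19. It is therefore the exonic member, while Mir335 and Mir483 are intronic. Mir675 and Mir483 are 77776 nt apart on the same strand.

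Mir296 (chromosome 2, 174267047 to 174267125, minus strand) and Mir298 (chromosome 2, 174267504 to 174267585, minus strand) are separated by 378 nt. M21 annotates no other gene across either of them. The nearer end of Nespas, on the same strand, is 13651 nt from Mir298, and Gnas, on the plus strand, begins 16734 nt from it. Gnas encodes the stimulatory G protein alpha subunit that couples hormone receptors to adenylyl cyclase.

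**Figure D2:**
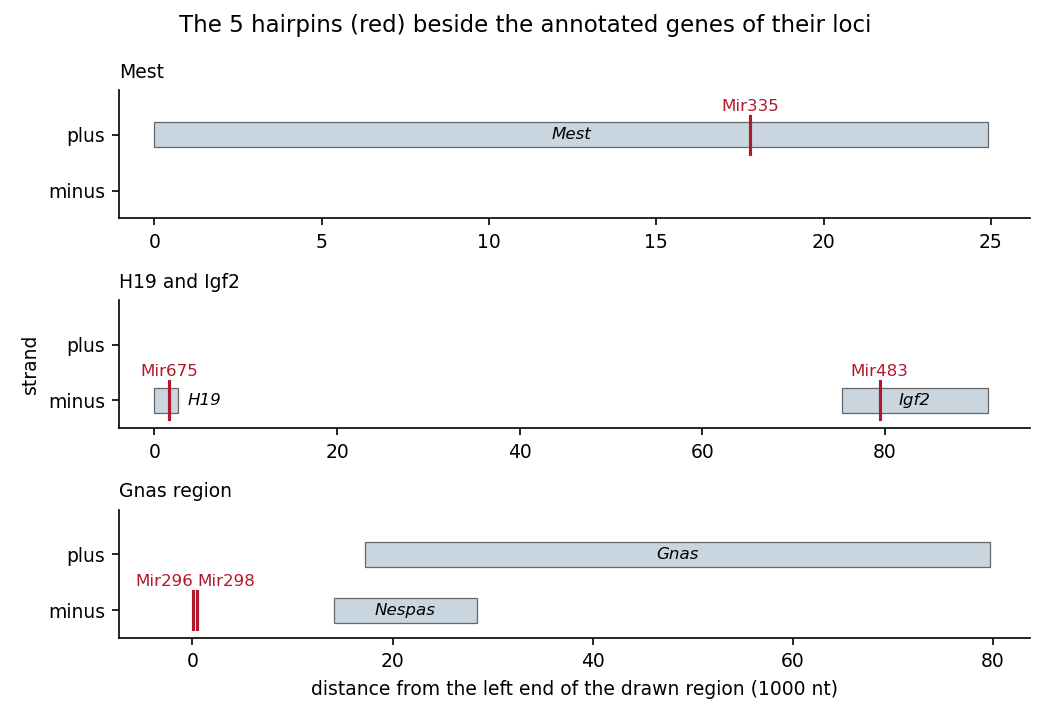
Position of each hairpin (red line) beside the annotated genes of its locus (grey boxes, from start to end), by strand, in units of 1000 nt from the left end of the region. Mir335, Mir675 and Mir483 lie inside host genes, while Mir296 and Mir298 lie 13651 nt or more from the nearer end of Nespas.

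The libraries held 3999172 and 5062714 counts assigned to miRNA genes. Levels are counts per 1000000 of these (CPM), so 1 count is worth 0.25 CPM in the first library and 0.198 CPM in the second. Reads with several matches are not among them. All levels, ranks and shares therefore leave out what such reads would add to multi-copy miRNAs. Intervals are exact (Clopper-Pearson) at 95% and, since the reads carry no molecular identifiers, cover counting error only. The labelled tissue was checked against marker miRNAs. Of 8 listed skeletal muscle miRNA genes, 6 had at least 10 counts in both libraries, with summed levels of 100971 and 87956 CPM in replicates 1 and 2, nearly all of it Mir206. The listed muscle genes include multi-copy miRNAs whose reads can be lost as matching several places. Of 6 neuronal genes (copies of Mir124a and Mir9) none reached 10 counts in both libraries. Mir124a-2, Mir124a-3 and Mir9-2 were at 0 in both. Reads of these multi-copy miRNAs can be lost in the same way, so the low counts cannot tell whether neuronal miRNAs were absent.

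All 5 genes were present in both libraries, but their levels spanned an 800-fold range. By the assigned counts, Mir335 was among the most abundant miRNA genes. Mir483 and Mir298 were at intermediate levels, Mir296 was lower, and Mir675, which lies in H19, was the least abundant of the 5. The order was the same in both libraries and also when counts were divided by hairpin length.

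Mir335, the Mest miRNA, had 117037 counts in replicate 1 and 166772 in replicate 2. Its level in replicates 1 and 2 was 29265 CPM (interval 29100 to 29431) and 32941 CPM (interval 32786 to 33097), with a mean of 31103 ± 2599 CPM (SD, n = 2). The intervals do not overlap, and replicate 2 is the higher. Mir335 was 9th and 8th of all genes in replicates 1 and 2. The nearest gene below it in mean level was Mir379 of the Dlk1-Dio3 cluster, at 31022 ± 875 CPM, a difference smaller than the SD of Mir335. Mir379 was higher than Mir335 in replicate 1 (31641 CPM) and lower in replicate 2 (30404 CPM). The nearest gene above, Mirlet7g of the let-7 family, had 54222 ± 767 CPM, a gap beyond both SDs.

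Mir483, the Igf2 miRNA, had 11753 counts in replicate 1 and 14011 in replicate 2, or 2939 CPM (interval 2886 to 2992) and 2767 CPM (interval 2722 to 2814). The mean was 2853 ± 121 CPM, and the ranks were 47 and 51. The intervals of the 2 libraries do not overlap on this scale, with replicate 2 the lower. The neighbours in mean level, Mir28a at 2863 ± 86 CPM and Mirlet7e at 2755 ± 75 CPM, both differed from it by less than its SD.

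Mir675, the H19 miRNA, had 164 and 186 counts. These gave 41.0 CPM (interval 35.0 to 47.8) in replicate 1 and 36.7 CPM (interval 31.6 to 42.4) in replicate 2, with a mean of 38.9 ± 3.0 CPM and ranks of 203 and 209. The 2 intervals overlap. A few reads were also found on the opposite strand of Mir675, 1 in replicate 1 and 2 in replicate 2, which is within the 3 counts that a count of 0 allows. The other 4 genes had 0 opposite-strand reads in both libraries. In mean level Mir675 lay beside the muscle miRNA Mir133b, at 38.8 ± 6.6 CPM, and to Mir1843b at 40.5 ± 6.7 CPM, both within the SDs.

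Of the Gnas-region pair, Mir298 was the more abundant, with 8095 and 9243 counts. Its level in replicates 1 and 2 was 2024 CPM (interval 1980 to 2069) and 1826 CPM (interval 1789 to 1863), with a mean of 1925 ± 140 CPM and ranks of 57 and 59. Mir296 had 1609 and 2087 counts, which gave 402 CPM (interval 383 to 422) and 412 CPM (interval 395 to 430), a mean of 407 ± 7.0 CPM and ranks of 107 and 101. The libraries overlapped in their intervals for Mir296 and did not for Mir298. The neighbours of Mir298 in mean level were Mir30e (2061 ± 71 CPM) and Mir154 (1823 ± 150 CPM), and those of Mir296 were Mir92-1 (411 ± 9.8 CPM) and Mir543 (398 ± 14 CPM). Each of these 4 differed from the gene beside it by less than the larger SD of the pair.

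**Figure D3:**
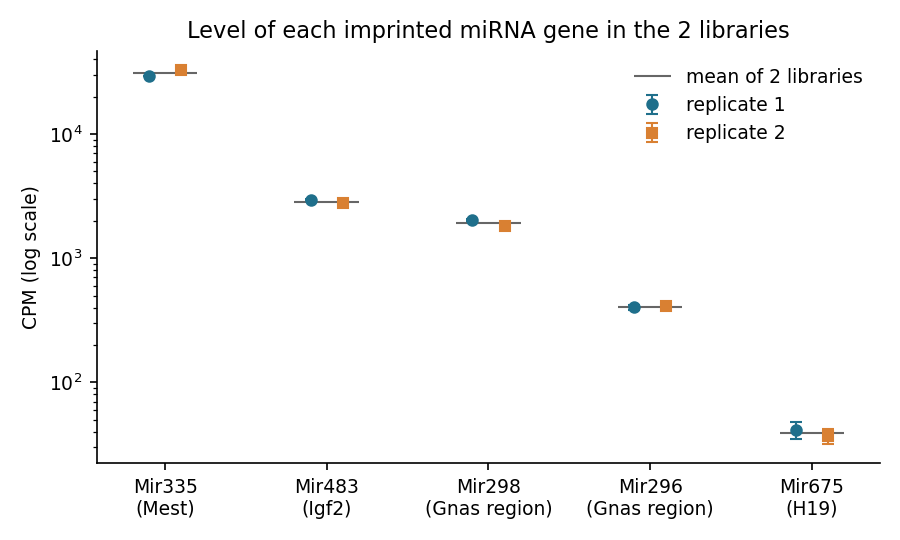
Level of each gene in CPM (log scale) in replicate 1 (circles) and replicate 2 (squares), with exact 95% intervals and a line at the mean. The order from Mir335 (31103 CPM) to Mir675 (38.9 CPM) is the same in both libraries.

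The gaps between the members exceeded the spread between the libraries. Mir335 was 10.9-fold above Mir483 in mean CPM, 9.96-fold in replicate 1 and 11.9-fold in replicate 2. Mir483 was 1.48-fold above Mir298 (1.45 and 1.52 in replicates 1 and 2). Mir298 was 4.73-fold above Mir296, and Mir296 was 10.5-fold above Mir675. A small RNA read covers a whole mature arm, so a longer hairpin does not by itself give more reads. Divided by hairpin length all the same, the mean levels were 317380 ± 26523 CPM per 1000 nt for Mir335, 39085 ± 1660 for Mir483, 23475 ± 1711 for Mir298, 5155 ± 89 for Mir296 and 463 ± 36 for Mir675. The step from Mir335 to Mir483 was then 8.12-fold and that from Mir483 to Mir298 1.66-fold. How well each sequence is captured in library preparation was not measured here, so a ratio between different miRNAs may differ from the ratio of their molecules.

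**Figure D4:**
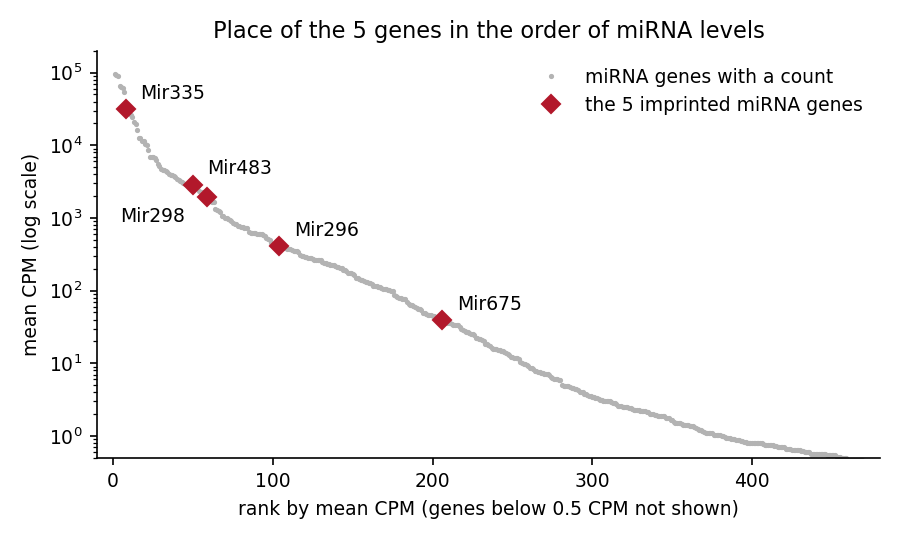
Mean CPM (log scale) of the miRNA genes with a count, by rank (grey), with the 5 genes as red diamonds. They are spread along the curve from rank 8 (Mir335) to rank 206 (Mir675).

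The ratio of 2 miRNAs of 1 region needs no scaling of the libraries, and 2 such pairs were compared. The Igf2 miRNA exceeded the H19 miRNA by a wide margin. Mir483 had 71.7 counts for each count of Mir675 in replicate 1 (interval 61.4 to 84.1) and 75.3 in replicate 2 (interval 65.2 to 87.5), a mean ratio of 73.5 ± 2.6 in CPM and of 84.6 per hairpin length. The ratio of replicate 2 to replicate 1 was 1.05 (interval 0.846 to 1.31), and the libraries were not distinguished (Fisher's exact test, two-sided, Benjamini-Hochberg adjusted p = 0.666). Mir298 had 5.03 counts for each count of Mir296 in replicate 1 (interval 4.77 to 5.31) and 4.43 in replicate 2 (interval 4.22 to 4.65). This ratio was lower in replicate 2, by a factor of 0.880 (interval 0.819 to 0.946), a difference beyond counting error (Fisher's exact test, two-sided, adjusted p = 0.000968, raw p = 0.000484, adjusted over the 2 pairs). The ratio of the neighbours Mir296 and Mir298 thus differed between these libraries by more than counting error, which is all that this test covers, while for Mir483 and Mir675 the 164 and 186 counts of Mir675 limit what could be seen.

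Each gene was also compared between the libraries by an exact binomial test (two-sided) of its 2 counts against library totals scaled by TMM. The p-values were adjusted by Benjamini-Hochberg over the 332 genes that averaged 10 counts or more. All 5 members passed that filter. By this test 2 of the 5 differed, Mir335 higher and Mir298 lower in replicate 2. Over all genes tested, 131 differed, which is 39.5%, with 27.1% higher (90 genes) and 12.3% lower (41 genes), so the members' count is near the background. With plain library totals 62 genes were higher and 79 lower. The test covers counting error only, and the biological coefficient of variation over the 2 libraries was 0.14.

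Mir335 was higher in replicate 2 by a factor of 1.18 (log2 0.24, interval 0.23 to 0.25). Mir298 had a log2 ratio of -0.078 (interval -0.12 to -0.034, adjusted p = 0.00161 by the exact binomial test). Mir296 had a log2 ratio of 0.11 (interval 0.012 to 0.20) and missed the threshold after adjustment (exact binomial test, adjusted p = 0.0646). Mir483 had -0.015 (interval -0.051 to 0.020, exact binomial adjusted p = 0.537) and Mir675 -0.087 (interval -0.40 to 0.22, exact binomial adjusted p = 0.717). The signs of all 5 ratios were the same with TMM, with DESeq2 size factors and with plain totals. With plain totals Mir483 passed as lower, at a log2 ratio of -0.087 (exact binomial adjusted p = 8.65e-06). The median absolute log2 ratio was 0.087 over the members, 0.10 over the 52 Dlk1-Dio3 genes tested and 0.16 over all genes tested. The genes tested reach down to an average of 10 counts, where counting error in a ratio is larger. In edgeR's exact test with a negative binomial model, whose dispersion came from the same 2 libraries, neither Mir335 nor Mir298 passed (adjusted p = 1 for each of the 5).

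**Figure D5:**
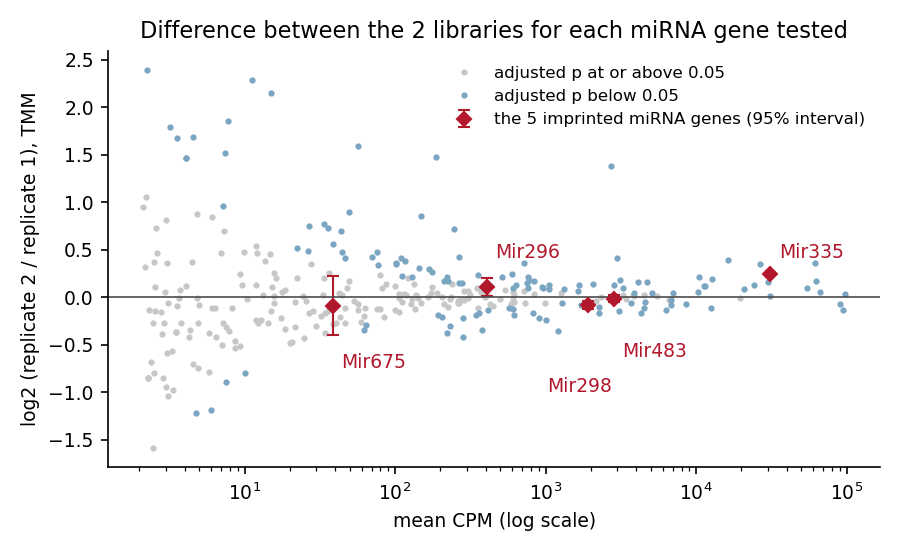
Log2 ratio of replicate 2 to replicate 1 (TMM-scaled) against mean CPM (log scale) for the 332 genes tested, with the 5 genes as red diamonds and their exact 95% intervals. Mir335 lies above 0 at 0.24, and the other 4 lie between -0.087 and 0.11.

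Markers of several cell types also differed between the libraries by the exact binomial test. That test covers counting error only, and 39.5% of all genes tested passed it. The endothelial Mir126a stood at 55784 CPM and 67925 CPM in replicates 1 and 2. Of the 2 smooth muscle markers, which summed to 24571 and 29713 CPM, Mir143 was higher in replicate 2 (23930 and 29124 CPM) and Mir145a did not pass the exact binomial test (641 and 589 CPM, log2 -0.051, adjusted p = 0.328). The 2 erythroid markers Mir451a and Mir144, both higher, summed to 1680 and 4088 CPM, and the hepatocyte Mir122 had 103 and 272 CPM. The skeletal muscle markers did not move one way. Mir206, which carries their sum, was lower in replicate 2 (100599 and 87446 CPM, log2 -0.13), while Mir499 (192 and 302 CPM, log2 0.72), Mir208b (34.3 and 52.7 CPM, log2 0.69) and Mir1a-2 (91.5 and 111.8 CPM, log2 0.36) were higher, and these 4 passed the exact binomial test. Of the other listed muscle genes, Mir133b, Mir1a-1 and Mir133a-1 did not pass, and Mir133a-2 had too few counts to be tested. The myeloid Mir223 had 26.5 and 24.5 CPM, the 2 epithelial markers Mir203 and Mir200c summed to 77.3 and 64.4 CPM, the islet Mir375 had 5.00 and 3.75 CPM, and the 6 neuronal genes summed to 0.5 and 1.38 CPM. The part of these cell types in the ratios of Mir335 and Mir298 was not tested. In whole muscle, a difference in the number of cells of a type and a difference in RNA per cell cannot be told apart.

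As a group, the 5 genes held a small part of the miRNA counts, and most of it was Mir335. They took 3.47% of the assigned counts in replicate 1 (interval 3.45 to 3.49) and 3.80% in replicate 2 (interval 3.78 to 3.82), or 3.63% ± 0.23. Mir335 made up 84.4% and 86.7% of the members' counts in replicates 1 and 2, Mir483 8.48% and 7.29%, Mir298 5.84% and 4.81%, Mir296 1.16% and 1.09%, and Mir675 0.118% and 0.0967%. Without Mir335, the other 4 took 0.541% (interval 0.533 to 0.548) and 0.504% (interval 0.498 to 0.510) of the assigned counts. The group's share was higher in replicate 2 with Mir335 and lower without it.

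Among the listed imprinted miRNAs the group came after the Dlk1-Dio3 cluster, a maternally expressed array on chromosome 12. The list of imprinted miRNA genes held the 5 members, Mir184 near Rasgrf1, 67 genes between Dlk1 and Dio3, and 119 genes inside Sfmbt2, 192 in all. These took 32.9% ± 0.023 of the assigned counts, to which Dlk1-Dio3 contributed 29.2% ± 0.20 and the Sfmbt2 genes 0.0830% ± 0.011. The members held 10.5% of the imprinted miRNA counts in replicate 1 and 11.5% in replicate 2. Mir335 ranked 3rd in the list, Mir483 18th, Mir298 20th, Mir296 34th and Mir675 55th. At least 10 counts in both libraries were found for all 5 members, for 52 of the 67 Dlk1-Dio3 genes and for 6 of the 119 Sfmbt2 genes. The Sfmbt2 genes are near-identical repeats, and reads with several matches went uncounted, so their low counts are uncertain.

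The highest Dlk1-Dio3 gene was Mir127, at 96935 ± 1871 CPM. The highest Sfmbt2 gene, Mir467d, had 435 and 326 CPM in replicates 1 and 2, around the level of Mir296. Mir184 had 100 and 154 counts, or 25.0 and 30.4 CPM, below Mir675 in both libraries. By the exact binomial test, 18 of 52 Dlk1-Dio3 genes tested were higher and 10 lower in replicate 2. Over all 332 genes tested, 27.1% were higher and 12.3% lower. The median log2 ratio was 0.0086 over the Dlk1-Dio3 genes, 0.016 over all genes tested and -0.015 over the 5 members. With plain totals 10 Dlk1-Dio3 genes were higher and 17 lower, beside 62 higher and 79 lower of the 332 genes. Of 6 Sfmbt2 genes tested, 2 were lower and none higher, and Mir184 did not pass (log2 0.35, exact binomial adjusted p = 0.126).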

How the data were processed

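Small RNA was sequenced from 2 gastrocnemius samples. The authors deposited, for each library, a table of raw read counts for 2202 miRNA genes with 4 summary rows, which were left out of library totals and held 58.7% and 60.7% of the reads. The genome was mm10 and the annotation GENCODE M21, per the deposited metadata. The aligner and counting program were not given in the sources used here. The tables have no header, and the third column was used as the sense-strand counts, since over the miRNA genes it held 5.53 times the total of the opposite-strand column. All identifiers matched M21.

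Levels are CPM, given as mean ± SD. Genes averaging 10 counts or more were compared between the libraries by an exact binomial test, two-sided, with TMM-scaled totals (edgeR 4.0.16), adjusted by Benjamini-Hochberg at 0.05 over all genes tested. Alternatives were DESeq2 1.42.0 size factors, plain totals, all reads as denominator, other count minimums, the unstranded column, hairpin length, each library alone and a negative binomial test. The 2 libraries were not 1 library deposited again, since a chi-square test of the counts gave 85.7 per degree of freedom, with 331 degrees. Arms were matched to other hairpins over stretches of at least 10 nt, and folding energies are from RNAfold of ViennaRNA. Other software was Python 3.11.15, pandas 2.3.3, numpy 2.4.6, scipy 1.17.1 and R 4.3.3.

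The genes named are the 5 members, the nearest gene above and below each in mean CPM, Mir184, the highest gene of the Dlk1-Dio3 and Sfmbt2 lists, and cell type markers. The members and lists were chosen with earlier results of these data known.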

Additional observations from a re-analysis of the deposited data

How the results depend on the processing

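No paired analysis was possible because the series holds 1 group. The directions of the 5 ratios between the libraries held under the 7 alternatives of scaling, filter, strand column and test. A change of count minimum leaves each ratio as it is, and the negative binomial test used the same TMM-scaled totals. Those alternatives could therefore not have turned a direction, and only the other scalings and the strand column could. With all reads in place of assigned counts as the denominator, Mir335 was at 12516, Mir483 at 1151, Mir298 at 777, Mir296 at 164 and Mir675 at 15.7 per 1000000 reads, and the group's share was 1.46%. In the unstranded column, where reads at genes with a partner on the other strand are ambiguous and the assigned total is smaller, the levels were 37964, 3482, 2349, 497 and 47.8 CPM in the same order and the share was 4.43%. Mir335 ranked 12th per hairpin length. The ratio of Mir483 to Mir675 was 84.6 per hairpin length. The negative binomial exact test called 6 genes in place of 131, and Mir335 (log2 0.24) and Mir298 (log2 -0.078) lost their calls. That test takes its dispersion from the spread between these libraries, which is also the difference under test. It therefore cannot decide whether ratios of this size exceed the usual spread between samples. With plain totals Mir483 was called at a log2 ratio of -0.087. Of 107 recomputed values (levels, ranks, shares, ratios and calls), 80 kept their call, stayed within 1.5 times the count or moved by less than the SD. Some of the 80 could not have come out otherwise. With a pair of libraries, leaving either out always moves a level, share or ratio by less than the SD. The ratio of Mir298 to Mir296 was also fixed in the unstranded column, since neither gene had opposite-strand reads. Depth limits Mir675 most, as its 164 and 186 counts leave a log2 interval of -0.40 to 0.22.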
